A study of Drosophila melanogaster with 18 samples.

Results

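This account concerns the genes occupied by RNA polymerase II (PolII) in the enterocytes (ECs) of the adult *Drosophila* midgut, as recorded by Targeted DamID (TaDa). All rows of the deposited PolII list for ECs were used. They hold 948 genes, which is 5.3% of the 17872 genes of the RefSeq annotation and 6.79% of its 13962 protein-coding genes. All 948 are protein-coding in that annotation. A gene entered the list by its log2 ratio of PolII-Dam over Dam alone and its false discovery rate (FDR), so these values describe the members and test nothing.

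The samples behind the list were PolII-Dam in ECs (3 replicates), from flies carrying Myo1A-Gal4, UAS-GFP and tub-Gal80-TS together with UAS-LT3-Dam-PolII. They were set against Dam alone in ECs (3 replicates), in which the same driver line was combined with UAS-LT3-Dam. All flies were mated adult females kept for 72 hours at 29°C to release transgene expression, and whole midguts without the proventriculus were pooled for each replicate. The series has 18 samples in all, the other 12 being Ets21c-Dam in ECs and, with esg-Gal4 in place of Myo1A-Gal4, PolII-Dam, Ets21c-Dam and Dam alone in intestinal stem cells and enteroblasts (ISCs/EBs), 3 replicates each. The driver limits the model, since the marks come only from cells in which Myo1A-Gal4 is active, and all regions of the midgut were averaged.

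ECs are the absorptive cells of the midgut. They secrete digestive enzymes, take up sugars, amino acids, lipids and metals through an apical brush border, and form a barrier closed by smooth septate junctions. Each differentiates from an enteroblast, which in turn comes from an ISC. In TaDa, PolII carries a bacterial adenine methylase that marks GATC sites near the polymerase, and division by a free Dam profile removes the part of the mark that reflects open chromatin. The value given for a gene, its height, is the mean log2 ratio over the transcript, averaged over replicates by the authors. No replicate values were analysed here, so no height has a spread, and a gene outside the list has no height at all.

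Heights in ECs were low. They ran from 0.301 to 1.319, with quartiles at 0.375, 0.459 and 0.579, so that the median gene carried 1.38 times as much PolII-Dam as Dam-alone signal and the highest gene 2.49 times. A height of 0.5 or more was reached by 383 genes and a height of 1 or more by 6. In the PolII list of ISCs/EBs, which holds 12.4% of annotated and 15.8% of protein-coding genes, the median was 0.935 and 983 genes reached 1. The deposited FDR of the EC list lay between 1.3e-21 and 0.00994 with a median of 0.00211.

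The genes with the 10 largest heights were all short, at most 1179 bp, and included a histone gene and a pair of genes for import into mitochondria. His4r, which encodes the replication-independent histone H4, stood first at 1.319 (3R, positions 14625755 to 14626614, dm6). CG42239, a gene named by CG number only, followed at 1.274, and Tim8, a small chaperone of the mitochondrial intermembrane space, had 1.10. The RNA-binding cyclophilin gene cyp33 had 1.085, Sfp33A3 1.033 and CG13365 1.002. Tom7, a subunit of the outer membrane translocase of mitochondria, had 0.990, CG31800 0.973, GstE9 0.963 and AANATL3 0.962. Of these 10, only CG31800 and AANATL3 were absent from the ISC/EB list. Sfp33A3 is named for a seminal fluid protein of the male and overlaps the gene Pde1c, which is not in the list. At the other end, Fmo-2, Myd88 and hiro stood at the lower limit of 0.301.

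The label of the list was compared with marker genes. Of 20 enterocyte markers, 5 were listed: mex1 at 0.594, the Jonah protease gene Jon99Ci at 0.583, the endodermal GATA factor gene GATAe at 0.56, the brush border myosin gene Myo61F at 0.45 and the maltase gene Mal-A1 at 0.325. The other 15, among them nub, the trypsin genes alphaTry, betaTry, thetaTry and iotaTry, the amylase gene Amy-p and the second midgut myosin gene Myo31DF, were not. ISCs/EBs also had 5 of the 20, with mex1 at 1.105, GATAe at 1.543, Myo61F at 1.011 and Mal-A1 at 0.931 besides Myo31DF at 0.472, so membership of these markers did not separate the lists.

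Progenitor markers differed more between the lists. None of 15, including esg, Delta, Sox21a, klu and spi, was in the EC list, against 12 of 15 in the ISC/EB list, where Sox21a had 1.824 and esg 1.463. The EC list holds 6.79% of protein-coding genes, which would come to few of 15, and the ISC/EB list 15.8%. The markers are also long, with a median of 9416 bp. Of protein-coding genes of 6479 to 14703 bp, 8.52% were in the EC list and 31.3% in the ISC/EB list. Of 8 smooth septate junction genes, 2 were listed in ECs and 3 in ISCs/EBs. Those in ECs were Ssk (0.782 in ECs, 1.499 in ISCs/EBs) and Tsp2A (0.412 in ECs, 1.372 in ISCs/EBs), which encode membrane proteins of the EC junction. Among 11 regional factors of the midgut, GATAe and vnd (0.431) were listed in ECs, against 7 of 11 in ISCs/EBs, GATAe and vnd among them.

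Markers of other cells that whole midguts could hold were also counted, in lists so short that the 6.79% of all protein-coding genes would come to few members. Of 17 enteroendocrine, 8 neuronal, 6 germline and 9 fat body or tracheal markers none was in the EC list. Of 15 muscle markers 1 was listed, the tropomyosin gene Tm1 at 0.439, which also has forms used outside muscle. Of 9 hemocyte markers 1 was listed, the scavenger receptor gene crq at 0.552, and crq overlaps ex, which was listed in ISCs/EBs alone (0.66).

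Digestive genes formed a small part of the list, as far as genes with a name show. The 351 genes of the EC list named by CG number only were in no function list. Any digestive genes among them are therefore not counted. Of 98 genes for digestive enzymes, their relatives and the gut lining, 10 (10.2%) carried PolII in ECs. The shares of all annotated and of protein-coding genes were 5.3% and 6.79%. The group follows enzyme families, so it also holds genes for enzymes that act inside cells, such as bmm and LManI, both among the 10. The ISC/EB list held 6 of the 98 (6.12%), below the 12.4% of annotated genes in that list. Digestive genes were thus the 1 group of the 4 with more members in the EC list than in the ISC/EB list. Only 2 genes, Mal-A1 and bmm, were in both lists, and 8 were in the EC list alone. At an FDR of at most 0.001, 1 digestive gene was left in the EC list (1.02%), against 1.99% of annotated genes.

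Of 33 genes of the Jonah and trypsin families, which encode serine proteases secreted into the gut lumen, 3 were listed in ECs and none in ISCs/EBs. The share in ECs, 9.09%, was near the 6.79% of protein-coding genes. The 3 were kappaTry at 0.726, Jon99Ci at 0.583 and Jon74E at 0.557. Each lies beside other proteases that were not listed: lambdaTry starts 5 bp from kappaTry, and Jon99Cii lies 610 bp from Jon99Ci. These genes are relatives with similar sequences, and nothing in the labels or methods says how reads were told apart between them. Of 20 glycosidases, which split dietary sugars or, for the LMan genes, lysosomal glycans, 5 (25%) were listed, at Mal-A4 0.445, Mal-A7 0.401, LManI 0.349, Mal-A8 0.329 and Mal-A1 0.325. Their median of 0.349 was below that of the list, with gene length not taken into account. Mal-A1 was the 1 glycosidase also listed in ISCs/EBs, at 0.931.

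None of 7 lysozyme genes was listed in either cell type. They are short, with a median of 564 bp, and the shares of protein-coding genes, 6.79% in ECs and 15.8% in ISCs/EBs, would come to few of 7. Of 7 lipases, bmm, the triglyceride lipase of lipid droplets, was listed at 0.489, against 1.143 in ISCs/EBs. Of 31 genes for mucins and the peritrophic matrix, the chitin-rich lining of the lumen, 1 (3.23%) was listed in ECs, Muc55B at 0.546. In ISCs/EBs 3 (9.68%) were listed, Mur29B, Muc30E and Mur2B. Both shares were below those of protein-coding genes.

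To show the promoters of a pair of listed digestive genes, the 150 bases before each annotated start are printed 5′ to 3′ on the gene's strand, from the RefSeq dm6 genome. Capitals mark the motif TATAAA of the classical core promoter and the motif TGATAA read by GATA factors, on either strand. Jon99Ci is given at 3R:29926190-29926339 and Jon74E at 3L:17549128-17549277, both on the minus strand.
Jon99Ci: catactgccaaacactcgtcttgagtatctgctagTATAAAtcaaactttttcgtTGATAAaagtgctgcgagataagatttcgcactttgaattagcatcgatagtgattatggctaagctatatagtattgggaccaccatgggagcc
Jon74E: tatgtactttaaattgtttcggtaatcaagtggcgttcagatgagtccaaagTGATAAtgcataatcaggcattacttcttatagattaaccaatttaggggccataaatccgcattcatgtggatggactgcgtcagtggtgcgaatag

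In Jon99Ci, TGATAA began 95 bases before the start, and TATAAA 115 bases before it. In Jon74E, TGATAA began 98 bases before the start. Within 250 bases before to 50 bases after the start, TGATAA on either strand occurred in 5 of the 10 listed digestive genes, in 41 of all 97 digestive genes with a promoter window (42.3%) and in 22.7% of 13944 protein-coding promoters. TATAAA occurred in 8 of the 10, in 67.0% of digestive genes and in 45.8% of protein-coding promoters. Both motifs were therefore frequent in digestive genes whether or not they were listed.

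**Figure D1:**
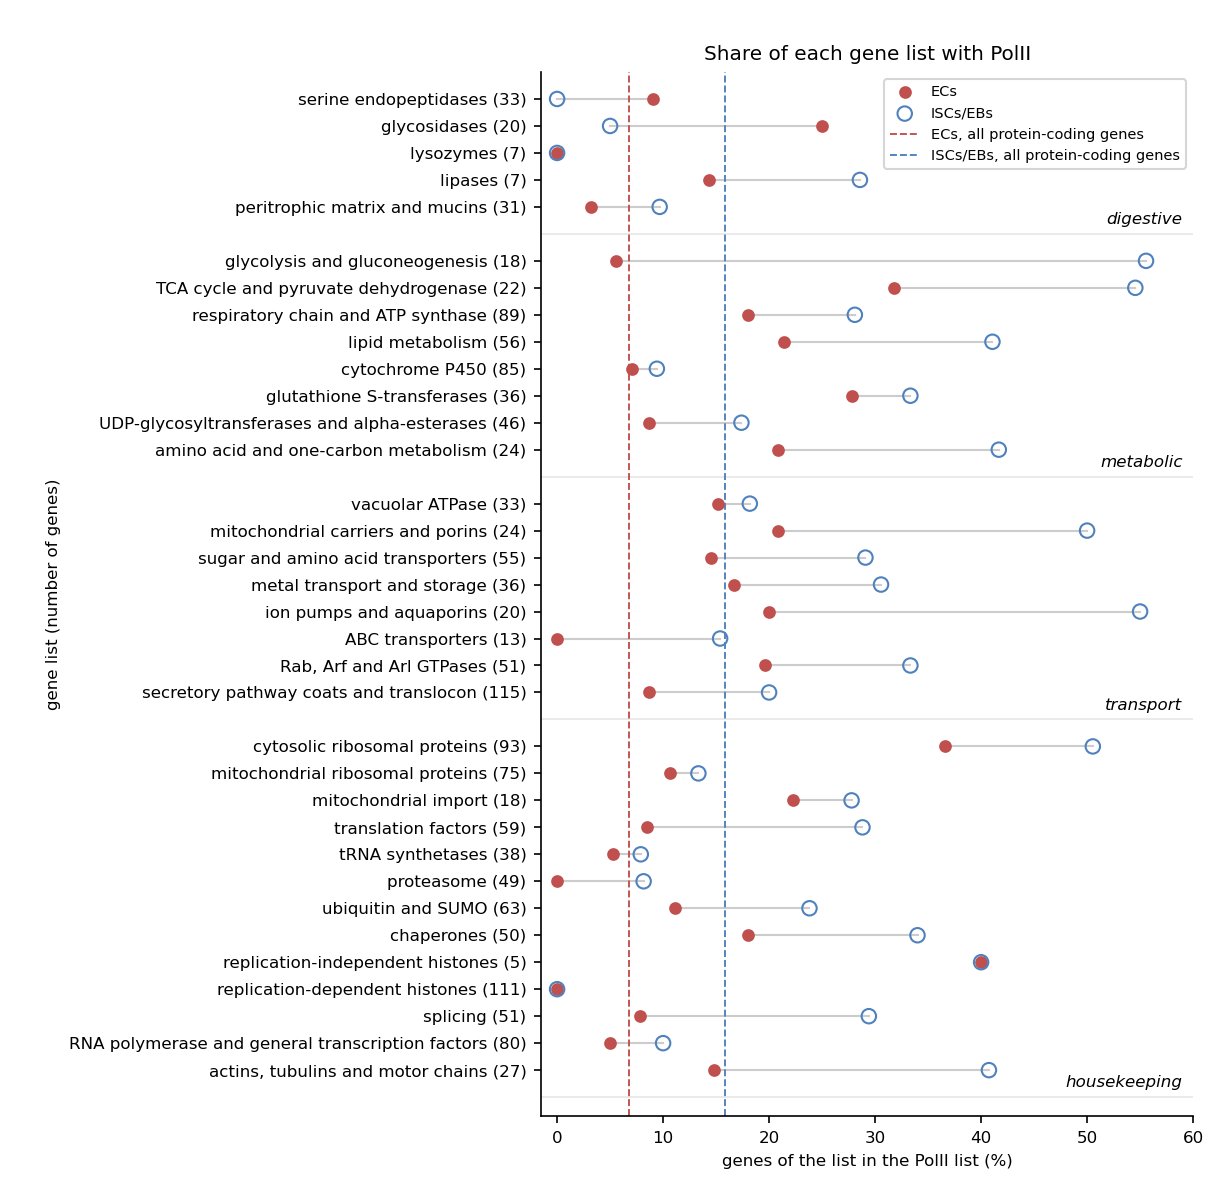
Share of each gene list found in the PolII list of ECs (filled points) and of ISCs/EBs (open points), as a percent of the genes of that list, whose number stands in brackets. Dashed lines give the shares of all protein-coding genes, 6.79% in ECs and 15.8% in ISCs/EBs. Serine endopeptidases and glycosidases lie to the right in ECs, and glycolysis lies far to the right in ISCs/EBs.

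Metabolic genes were listed more often. Of 376, 61 (16.2%) carried PolII in ECs, against 108 (28.7%) in ISCs/EBs, and 47 were in both lists. Their median height of 0.524 in ECs was above the 0.459 of all listed genes, with gene length not taken into account. The share of its 8 lists ran from 5.56% to 31.8%.

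Of 18 genes of glycolysis and gluconeogenesis, 1 was listed in ECs (5.56%, near the 5.3% of all annotated genes), the hexokinase gene Hex-C at 0.409. In ISCs/EBs 10 of 18 were listed and Hex-C was not. Those 10 included Gapdh2 at 1.853, Gapdh1 at 1.407, Hex-A at 1.363 and Pgk at 1.034, none of which was in the EC list. The TCA cycle and pyruvate dehydrogenase differed from this, with 7 of 22 listed in ECs (31.8%) and 12 in ISCs/EBs. They were SdhD, a membrane anchor of succinate dehydrogenase, at 0.505, the 3 subunit genes of NAD-dependent isocitrate dehydrogenase (Idh3b at 0.476, Idh3g at 0.327 and Idh3a at 0.309), muc at 0.386, Scsalpha1 at 0.359 and the NADP-dependent Idh at 0.332. Most were low, with a median of 0.359.

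The respiratory chain and ATP synthase had 16 of 89 genes listed (18%) in ECs, against 25 in ISCs/EBs, at a median of 0.586. Cytochrome c oxidase gave cype at 0.948, COX8 at 0.735, COX7C at 0.713, COX5A at 0.588 and COX5B at 0.584. Complex III gave UQCR-11L at 0.883, UQCR-6.4 at 0.724 and UQCR-14 at 0.638, none of them in the ISC/EB list, besides UQCR-Q at 0.411 and Cyt-c1 at 0.372. ATPsynC, the ring subunit of the ATP synthase, had 0.738 in ECs and 2.097 in ISCs/EBs. UQCR-11L overlaps Acsl (0.539 in ECs, 0.92 in ISCs/EBs), and UQCR-14 lies within CG32576 (0.551 in ECs, 0.846 in ISCs/EBs). UQCR-6.4 lies 44 bp from CG42239 (1.274 in ECs, 1.797 in ISCs/EBs). The mark has no strand, so the signal of overlapping genes cannot be told apart.

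Lipid genes had 12 of 56 members listed (21.4%), with a median of 0.607, against 23 in ISCs/EBs. Npc2e, of a family of sterol-binding proteins, had 0.869. The dihydroceramide desaturase gene ifc had 0.859, the fatty acid binding protein gene fabp 0.776 and the acyl-CoA binding protein genes Acbp2 and Acbp3 0.704 and 0.657. Desat1, which makes monounsaturated fatty acids, had 0.661. Of these 12, Acbp2 and the lipoprotein receptor gene LpR1 (0.319) were not in the ISC/EB list. The lipid genes counted here are not all that have a name. The diacylglycerol O-acyltransferase gene Dgat2 (0.654 in ECs, not in the ISC/EB list) was in no function list.

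Enzymes that modify foreign compounds were unevenly listed. Glutathione S-transferases, which join glutathione to electrophiles, had 10 of 36 members listed (27.8%), against 12 in ISCs/EBs, at a median of 0.651. Their heights were 0.963 for GstE9, 0.88 for GstE7, 0.855 for GstE6, 0.762 for GstE8, 0.654 for GstT1 and 0.648 for GstD1. GstE6, GstE7 and GstE3 (0.614) were in the EC list alone. GstE6, GstE7, GstE8, GstE9 and imd form an unbroken run of 5 listed genes over 7589 bp, and GstE9 overlaps imd (0.555). Cytochrome P450 genes had 6 of 85 listed (7.06%), near the 6.79% of protein-coding genes, with Cyp12a4 highest at 0.608. UDP-glycosyltransferases and alpha-esterases had 4 of 46 (8.70%), of which Ugt303B1, Ugt303B3 and Ugt303B2 had 0.565, 0.537 and 0.472.

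The promoter of GstD1 is shown because it holds TATAAA close to its start, at 3R:12369269-12369418 on the minus strand, with the motif in capitals.
GstD1: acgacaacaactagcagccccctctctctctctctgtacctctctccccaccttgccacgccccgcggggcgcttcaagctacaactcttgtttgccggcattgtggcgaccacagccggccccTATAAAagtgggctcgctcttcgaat

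TATAAA began 26 bases before the start of GstD1. Over the window of 300 bases it occurred in 25 of the 61 listed metabolic genes (41.0%), against 47.3% of all metabolic genes.

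Of 24 genes for amino acid and one-carbon metabolism 5 (20.8%) were listed. The antizyme gene Oda, which restrains polyamine synthesis, had 0.755, Sam-S, which makes the methyl donor S-adenosylmethionine, 0.49, P5cr-2 0.487, the glutamate dehydrogenase gene Gdh 0.424 and the glutamine synthetase gene Gs2 0.391. All 5 were also in the ISC/EB list, at heights from 0.684 to 1.687.

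**Figure D2:**
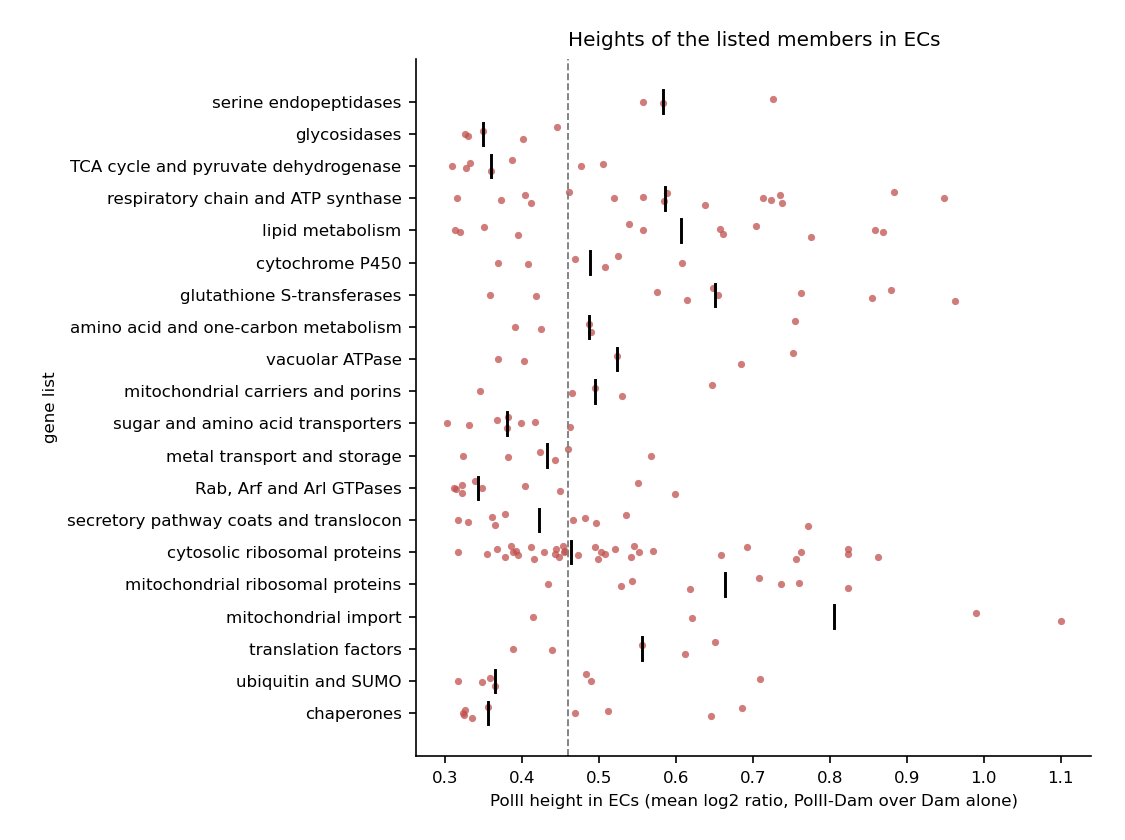
Heights in ECs of the listed members of 20 gene lists, each point 1 gene, with the median of the list as a black bar and the median of all 948 genes (0.459) as a dashed line. Mitochondrial import, mitochondrial ribosomal proteins and glutathione S-transferases lie right of the line, and glycosidases, sugar and amino acid transporters and Rab, Arf and Arl GTPases lie left of it. Gene length was not taken into account. In the same order, the median gene length was 1104, 910 and 1090 bp right of the line, and 2290, 4894 and 2114 bp left of it.

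Transport genes had 48 of 347 members listed (13.8%) in ECs, against 98 (28.2%) in ISCs/EBs, with 37 in both. Their median height in ECs, 0.410, was below that of the list, with gene length not taken into account. Of 33 subunits of the vacuolar ATPase, the proton pump of endosomes and of acid-secreting cells, 5 (15.2%) were listed, with VhaM9.7-b at 0.752, Vha16-1 at 0.685 and Vha26 at 0.523. Vha100-5 (0.402) and VhaAC45 (0.369) were in the EC list alone.

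Mitochondrial carriers had 5 of 24 members listed (20.8%). The citrate carrier gene sea had 0.647, the pyruvate carrier subunit gene Mpc1 0.53, the ADP/ATP carrier genes Ant2 and sesB 0.494 and 0.465 and the phosphate carrier gene Mpcp2 0.345. Ant2 and sesB share a locus, and sea has the same annotated start and end as the lipid gene fabp (0.776), so their signals cannot be told apart. The 2 carriers that overlap no other listed gene, Mpc1 and Mpcp2, had a median of 0.438. In ISCs/EBs 12 of the 24 were listed.

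Nutrient transporters had 8 of 55 members listed (14.5%), all but 1 of them below the median of the list. The cationic amino acid transporter gene slif had 0.462, close to its 0.484 in ISCs/EBs. The others were out at 0.417, the oligopeptide transporter gene yin at 0.398, MFS12 at 0.381, MFS14 at 0.38, the sodium-solute symporter gene SLC5A11 at 0.367, path at 0.331 and the citrate transporter gene Indy at 0.302. Of these, yin, MFS12 and SLC5A11 were not in the ISC/EB list. Metal genes had 6 of 36 listed (16.7%), including the ferritin genes Fer2LCH (0.567) and Fer1HCH (0.423), the zinc transporter gene Zip99C (0.459) and the copper chaperone gene Atox1 (0.442). Only 2 of the 6 overlap no other listed gene, with a median of 0.3825. The signals of the rest cannot be told apart from those of the genes they overlap. No member of 13 ABC transporters was listed in ECs, where the 6.79% of protein-coding genes would come to few of 13. In ISCs/EBs 2 (15.4%) were listed, near the 15.8% of protein-coding genes.

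Among 20 ion pumps and aquaporins, 4 were listed in ECs and 11 in ISCs/EBs. Eglp4 (0.534 in ECs, 0.379 in ISCs/EBs) and Eglp2 (0.468 in ECs, 0.325 in ISCs/EBs) encode aquaglyceroporins, channels for water and small solutes. Irk1 (0.461) and Prip (0.314) had larger heights in ISCs/EBs, 0.827 and 0.913. Eglp2 and Eglp4 overlap, so they are 1 locus rather than 2 separate cases.

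Of 51 Rab, Arf and Arl GTPases 10 (19.6%) were listed, at a low median of 0.343. The early endosomal Rab4 had 0.599, the late endosomal Rab7 0.551, Arf1 0.449, Rab19 0.403, Arf4 0.347 and Rab2 0.339. Of 115 genes for secretory coats and the translocon 10 (8.70%, near the 6.79% of protein-coding genes) were listed, with Tango14 at 0.771, zetaCOP at 0.535, opm at 0.496, SsRbeta at 0.482 and Sec61beta at 0.466.

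Housekeeping genes had 82 of 717 members listed (11.4%) in ECs, against 153 (21.3%) in ISCs/EBs, and 71 were in both lists. Their lists ran from 36.6% of cytosolic ribosomal proteins and 2 of 5 replication-independent histones to none of the proteasome. Of 93 cytosolic ribosomal protein genes 34 were listed, with a median of 0.464, and 47 were listed in ISCs/EBs, with a median of 1.317. RpS28b had 0.863, RpL28 and RpLP2 0.823, RpL15 0.756 and RpL35A 0.692, and the lowest was RpS27A at 0.316. Only RpS13 (0.552) and RpL30 (0.52) were absent from the ISC/EB list.

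The promoters of 2 listed ribosomal protein genes are shown because they hold the DNA replication-related element TATCGATA, a palindrome bound by the factor Dref and known from housekeeping promoters. RpL28 is given at 3L:3222961-3223110 on the minus strand and RpS12 at 3L:13023202-13023351 on the plus strand, with the element in capitals.
RpL28: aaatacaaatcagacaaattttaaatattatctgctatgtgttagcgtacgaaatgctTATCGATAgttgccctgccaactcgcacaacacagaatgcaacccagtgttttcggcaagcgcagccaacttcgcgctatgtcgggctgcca
RpS12: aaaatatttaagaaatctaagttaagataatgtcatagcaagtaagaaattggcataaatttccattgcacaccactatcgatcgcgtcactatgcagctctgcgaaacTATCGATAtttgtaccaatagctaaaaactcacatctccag

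The element began 92 bases before the start of RpL28 (height 0.823) and 41 bases before that of RpS12 (0.392). In the window from 250 bases before to 50 bases after the start it occurred in 14 of the 34 listed ribosomal protein genes (41.2%), in 28 of all 93 (30.1%) and in 9.37% of protein-coding promoters.

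Of 75 mitochondrial ribosomal protein genes 8 (10.7%) were listed, at a median of 0.663, with mRpL20 at 0.823, mRpL55 at 0.76, mRpL35 at 0.737 and mRpS10 at 0.708. Mitochondrial import had 4 of 18, Tim8, Tom7, Tom20 (0.621) and mge (0.414). Of 59 translation factors 5 (8.5%) were listed in ECs, near the 6.79% of protein-coding genes. In ISCs/EBs 17 (28.8%) were listed, against 15.8% of protein-coding genes. Those in ECs were eIF3i at 0.651, eIF1A at 0.611, eEF5 at 0.556, eEF1alpha1 at 0.438 and eRF3 at 0.388. Of 38 tRNA synthetases 2 (5.26%, also near that share in ECs) were listed, SerRS-m at 0.38 and AspRS at 0.347.

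None of 49 proteasome genes was listed in ECs, against 6.79% of protein-coding genes, and 4 were in ISCs/EBs (Rpn3, Prosbeta6, Rpn9 and Rpn6, from 0.873 to 1.088). Of 63 ubiquitin and SUMO genes 7 (11.1%) were listed, led by Sumo at 0.709 and the conjugating enzyme gene eff at 0.49. Of 50 chaperones 9 (18%) were listed, on both sides of the median of the EC list. DnaJ-60 had 0.686, the small heat shock protein gene Hsp67Bc 0.645, Cyp1 0.512 and prtp 0.468, while Hsc70-3 (BiP) had 0.355, Pdi 0.335, Hsc70-4 0.325, Hsp83 0.324 and Calr 0.323.

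Of 5 replication-independent histone genes His4r and His3.3B (0.455) were listed, and of 111 annotated copies of replication-dependent histone genes none was in either list. Neither the labels nor the methods say how repeated copies were treated in the alignment. Of 51 splicing genes 4 (7.84%, near the 6.79% of protein-coding genes) were listed in ECs. In ISCs/EBs 15 (29.4%) were listed, against 15.8% of protein-coding genes. Of 80 genes for RNA polymerases and general transcription factors 4 (5%) were listed, with Polr2K at 0.707, and of 27 actins, tubulins and motor chains 4, among them the profilin gene chic (0.498) and Act5C (0.341).

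Outside these 4 groups, oxidant defense had 12 of 33 members listed in ECs (36.4%) and 13 in ISCs/EBs. The thioredoxin gene Trx2 had 0.814, the glutaredoxin gene Grx1 0.671 and Gclm, a subunit of the enzyme for glutathione synthesis, 0.594. The regulator cnc (fly Nrf2) had 0.374, its inhibitor Keap1 0.351 and its partner maf-S 0.607. Autophagy and lysosome genes had 6 of 35 listed, with Atg3 at 0.54 and the cathepsin gene CtsB at 0.47. Antimicrobial peptide and recognition genes had 2 of 54, the Imd pathway adaptor gene imd at 0.555 and PGRP-LA at 0.31.

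A further 9 lists were drawn up after the table had been read, so their counts follow the choice of members and describe only what the list contains. Regulators of nutrient use and growth had 20 of 33 members listed, all of them also in ISCs/EBs. Thor, the translation inhibitor 4E-BP, had 0.646, Max 0.479, bigmax 0.465, trbl 0.463, foxo 0.42, Rheb 0.385, Hnf4 0.361, REPTOR 0.339 and Myc 0.331. Phospholipid and sphingolipid enzymes had 14 of 29 listed, including eas (0.606), Agpat3 (0.6) and Pect (0.572). Stress kinases and cell death genes had 10 of 29, including Xrp1 at 0.638, the caspase gene Dcp-1 at 0.571, the JNK phosphatase gene puc at 0.539, the p38 kinase genes p38c and p38a at 0.544 and 0.517 and the caspase inhibitor gene Diap1 at 0.497. Actin regulators had 12 of 35, and enzymes of juvenile hormone and carbonyl metabolism 10 of 38. GPI anchor synthesis had 5 of 22, peroxisome genes 5 of 22, tetraspanins 6 of 34 and endosomal sorting genes 4 of 20.

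In all, 221 of the 948 genes fell in a first list, 85 only in one of the added lists and 642 in none. Of those 642, 351 carry only a CG number as a name, a class that made up 37% of the EC list and 43.7% of protein-coding genes. No gene of the EC list named in this way fell in a function list, so the counts by function cover named genes only, and not all of those.

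Most genes with PolII in ECs were also listed in ISCs/EBs. The lists shared 708 genes, which is 74.7% of the EC list and 32.0% of the ISC/EB list of 2216 rows. Across these 708 genes, heights were correlated (Spearman's rho 0.56, Pearson's r 0.59, a description across genes that share a design and a gene length). The median was 0.456 in ECs and 1.25 in ISCs/EBs, and the median difference, ECs minus ISCs/EBs, was −0.77. The height was lower in ECs for 705 genes and higher for 3, namely gem (0.636 against 0.449 in ISCs/EBs), Eglp4 and Eglp2. The drops with the greatest size were those of CG5399 (−1.89), CG30273 (−1.76), CG31548 (−1.69), CG44250 (−1.69) and CG30269 (−1.68), all named by CG number only. Since nearly all heights were lower in ECs, the scale of the profiles differed as a whole, and a lower height of a single gene in ECs cannot be told apart from that scale.

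**Figure D3:**
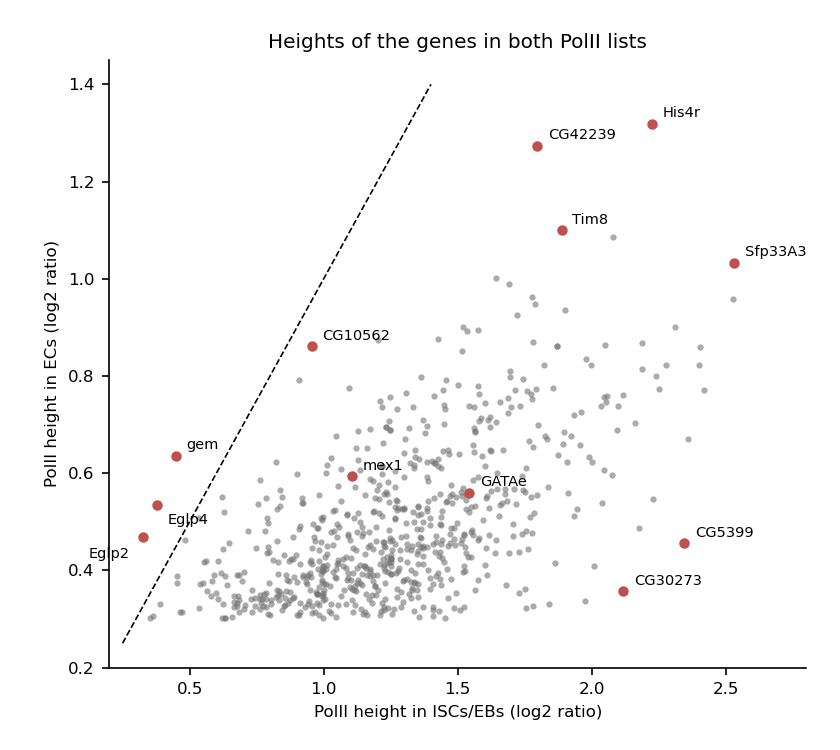
Height in ECs (vertical axis) against height in ISCs/EBs (horizontal axis), both log2 ratios, for the 708 genes in both lists, with equal heights on the dashed line. Only gem, Eglp4 and Eglp2 lie above the line, and His4r and CG42239 are highest in ECs.

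The 240 genes in the EC list alone (25.3%) had a median height of 0.466, close to the 0.456 of the shared genes. After CG31800 and AANATL3, an arylalkylamine N-acetyltransferase-like gene, the highest were CG12780 (0.939), CG40228 (0.919), CG1265 (0.897), CG13102 (0.892), CG5506 (0.89), UQCR-11L, GstE7, CG31288 (0.866), GstE6, Pldn (0.842), CG5107 (0.817), CG8993 (0.796) and CG1840 (0.789). AANATL3 and CG12780 stand apart from other genes, with the nearest protein-coding neighbor 2103 bp and 11896 bp away and none of the 3 nearest listed in ECs. CG31800 overlaps mib2, which was listed in ISCs/EBs (0.638) and not in ECs. Genes named by CG number only were 44.6% of the 240, near the 43.7% of protein-coding genes, and 34.5% of the shared genes. The genes upd3, Pvf1, Imp and Eip93F, studied elsewhere in the work as Ets21c targets, were not in the EC PolII list and had PolII heights of 1.031, 0.668, 0.702 and 0.505 in ISCs/EBs. Their Ets21c heights in ECs were 0.48, 0.59, 0.64 and 0.57, from profiles that share the Dam-alone controls and, by the methods, rest on 2 of the 3 Ets21c-Dam replicates.

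Promoters of the EC list were set against all protein-coding promoters for 6 motifs, each searched on both strands from 250 bases before to 50 bases after the start. No motif contains another, though TATCGATA and TGATAA both hold GATA. TATCGATA occurred in 13.7% of the 948 promoters, against 9.37% of protein-coding ones, and the core of Ohler motif 1, GGTCACACT, in 9.18% against 6.05%. The share with TATCGATA was 6.67% in the 240 genes of the EC list alone, 16.1% in the 708 shared genes and 13.7% in the genes of the ISC/EB list alone. TGATAA ran the other way, with 30.4% in the 240 genes, 23.4% in the shared genes and 22.7% in genes of the ISC/EB list alone and in all protein-coding genes. TATAAA occurred in 47.7% of the EC list and 45.8% of protein-coding promoters, GAGAG in 31.0% and 29.7%, and the palindromic E-box CACGTG in 3.8% and 4.2%, all close to the share of all promoters. A match does not show that a factor binds there.

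**Figure D4:**
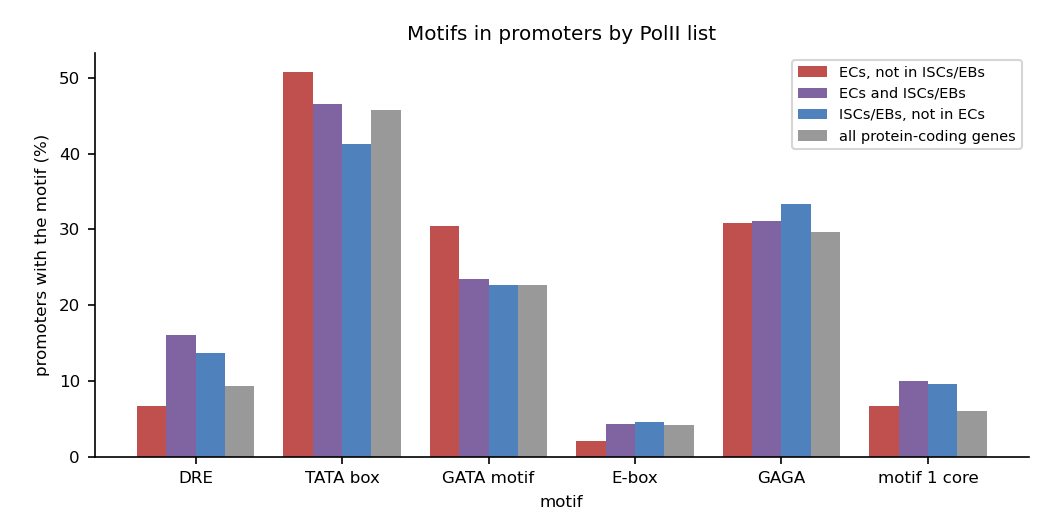
Percent of promoters (250 bases before to 50 after the start) with each of 6 motifs on either strand, for genes of the EC list alone, of both lists, of the ISC/EB list alone and for all 13944 protein-coding promoters. The genes of the EC list alone stand at 6.67% for the DRE and 30.4% for the GATA motif, against 9.37% and 22.7% of all promoters.

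Gene length went with both membership and height. Listed genes had a median length of 2320 bp in ECs, near the 2160 bp of protein-coding genes, and of 4096 bp in ISCs/EBs. Protein-coding genes were put in 10 equal classes by length. Of class 1, the shortest, 2.86% were in the EC list, against 9.10% of class 6 and 4.51% of class 10. In ISCs/EBs the share was 3.15% in class 1, 31.3% in class 9 and 25.6% in class 10. The lowest listed height in ECs was 0.543 in class 1, and the median there was 0.739, against 0.374 in class 10. By the methods, the FDR depended on gene size as well as on height, so a short gene needed a larger height to be listed. Heights therefore cannot be compared between lists of short genes, such as ribosomal or mitochondrial ones, and lists of long genes without regard to length. Across the EC list the height and the gene length had a Spearman's rho of −0.53, as a description over genes.

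**Figure D5:**
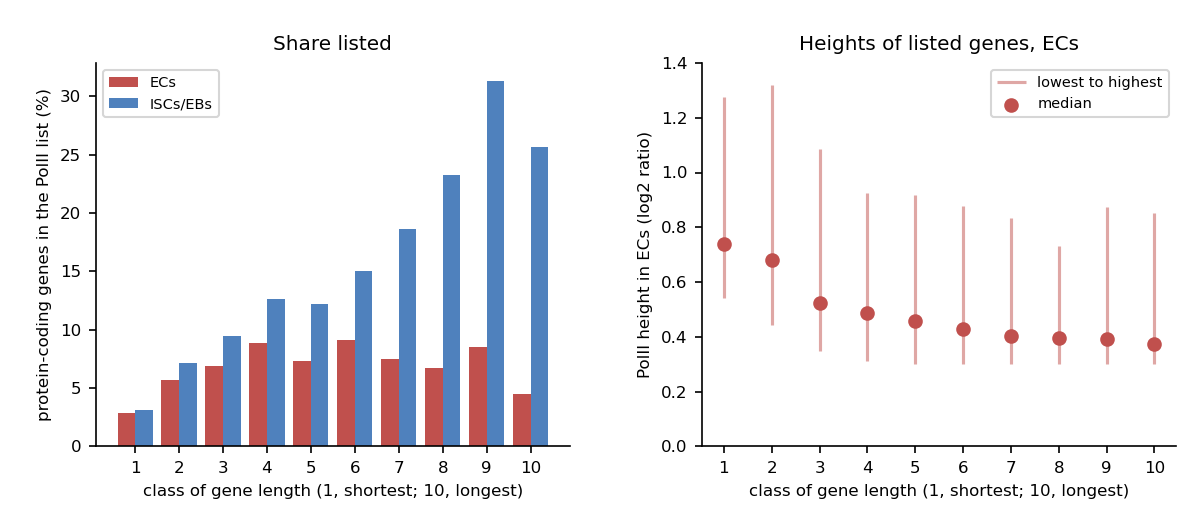
Left, percent of the protein-coding genes of each of 10 classes of gene length that are in the PolII list of ECs and of ISCs/EBs. Right, median (point) and range (line) of the heights of the genes listed in ECs. The share in ISCs/EBs climbs to 31.3% in class 9 while that in ECs stays below 10%, and the median height in ECs is 0.739 in class 1 and 0.374 in class 10.

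Listed genes lay close together. Of the 948, 391 (41.2%) were next to another listed gene, against 10.7% of other protein-coding genes, and 150 (15.8%) overlapped another listed gene. Among them, 26 genes had the same height and FDR as a gene they overlap, such as CG42362 and CG42363 (both 0.862) and Mocs2A and Mocs2B (both 0.408), so these are not separate measurements. Besides the GstE cluster, runs of 5 were Tsp29Fa to C1GalTA on 2L, over 17255 bp, and CG11267 to RpS12 on 3L, over 8713 bp. By chromosome arm the share of protein-coding genes in the EC list was 5.68% on 2L, 8.49% on 2R, 7.34% on 3L, 6.39% on 3R, 6.25% on 4 and 6.01% on X, and none of 23 on Y. The median height was 0.407 on X and from 0.449 to 0.499 on the other arms with listed genes.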

How the data were processed

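The authors made the deposited table from reads of methylated fragments. Per the study's methods, damidseq_pipeline gave the log2 ratio of fusion over Dam per GATC fragment, and for PolII this ratio was averaged over each transcript in a dm6 annotation, while the submitters' processing notes name build dm3. The deposited height is the authors' mean log2 ratio over replicates, and the deposited FDR, a q-value modelled from height and gene size, is the highest of the replicates. The heading states a minimum height of 0.2 for ECs, but the lowest value listed is 0.301. The depth of the libraries is unknown.

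Genes were matched to the RefSeq annotation of dm6 (943 by ID, 3 by symbol and 2 by synonym). List membership, medians, GATC sites, neighbors and promoter motifs were computed with python 3.11.15, pandas 2.3.3, numpy 2.4.6, scipy 1.17.1 and matplotlib 3.10.9, and were tested on simulated data. No test was run, since each gene has 1 pooled value. The members and the gene lists were chosen with earlier results of these data known. Named genes were the 10 highest in ECs, the 15 highest outside the ISC/EB list, the 3 and 5 extremes of the difference, 3 at the lower limit, up to 6 members by height of each list, all markers and genes the paper names, and others were chosen after their values were seen. Of the genes that the rule names, 1 is not reported here. Alternatives were stricter heights and FDRs, other backgrounds, 1 gene per overlapping group and a shorter promoter window.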

Additional observations from a re-analysis of the deposited data

How the results depend on the processing

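A minimum height of 0.3 could remove no gene, since the lowest height is 0.301. At an FDR of at most 0.001 the EC list held 356 genes, 311 of them shared with ISCs/EBs, and the shares were 1.02% of digestive, 6.91% of metabolic, 5.48% of transport and 2.65% of housekeeping genes, against 1.99% of annotated genes, so that the digestive share was below that of all genes. A minimum height of 0.4, chosen after the data had been seen, left 634 genes, 470 shared genes and 7.14% of digestive, 12.5% of metabolic, 7.49% of transport and 8.37% of housekeeping genes, against 3.55% of annotated genes. Counting protein-coding genes only, genes with at least 2 GATC sites, or 1 gene per overlapping group moved no group share outside its 95% Wilson interval. All listed genes and nearly all group members are protein-coding, and each overlapping group kept its highest listed gene. The first and last of these settings could thus change the shares little. The interval also treats genes as independent, although listed genes lay close together. Without overlapping members, 36 of 37 list medians moved by less than the spread of their members, and that of ion pumps and aquaporins became 0.314, from 1 gene, against 0.465. The 36 include lists with no overlapping member, whose medians could not move. In promoter windows of 100 bases before to 50 after the start, TATCGATA occurred in 11.5% of the EC list against 7.64% of protein-coding promoters, GGTCACACT in 7.81% against 5.19%, TGATAA in 11.6% against 11%, TATAAA in 20.8% against 24%, GAGAG in 20.3% against 18.1% and CACGTG in 2.0% against 2.4%. No paired analysis was possible because the table gives 1 pooled value per gene with no replicate number, and for the same reason no replicate could be left out. With no read depth and no replicate values, a gene outside the list may lack PolII or may have missed the height or FDR limits, and these cannot be told apart.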
